A study of Mus musculus with 6 samples.

Results

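The long-range contacts of the chromosome 5 bin that holds *Tbx3* and *Tbx5* were examined by in situ Hi-C, which crosslinks chromatin, cuts and religates it, and counts the sequenced read pairs that join 2 stretches of the genome. The contacts were chosen from the authors' deposited table of differential interactions between bins of about 1 Mb, as the rows that list *Tbx3* or *Tbx5* among the genes of either bin. There were 2 such rows out of 61, and both list *Tbx3* and *Tbx5* together. The rule used the result of the comparison itself, because the table is limited to bin pairs below a false discovery rate (FDR) of 0.1. The fold changes and their intervals, the F statistics and the FDRs are therefore given as a description, with no new test.

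The cells were primary female neural stem cells (NSCs) of the C57BL/6J strain, derived from embryonic cortex, grown for few passages and fixed in formaldehyde. The WT group (*Smchd1*GFP+/+) and the MommeD43 group (*Smchd1*GFPMommeD43/MommeD43) held 3 separately named cell lines each. Both groups carry GFP fused to the endogenous SMCHD1 protein, so the WT cells are not untagged, and the MommeD43 cells are in addition homozygous for the *MommeD43* missense allele. SMCHD1 is a noncanonical protein of the structural maintenance of chromosomes family that acts in X inactivation and in silencing clustered autosomal genes. The comparison asked whether the mutation alters long-range contacts. Cultured cells of 1 type from 1 strain limit it as a model, and since Hi-C holds no expression values the labelled cell type could not be checked against marker genes.

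*Tbx3* and *Tbx5* encode T-box transcription factors and lie side by side as a conserved gene pair. *Tbx5* directs the formation of the heart and the forelimb and is mutated in Holt-Oram syndrome, and *Tbx3* acts in the limb, the mammary gland and the cardiac conduction system and is mutated in ulnar-mammary syndrome. Both are regulated by enhancers spread over the large gene-poor stretches around them.

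A total of 3 bins make up the contacts. The *Tbx3*/*Tbx5* bin spans chr5:119000704-119999559 of mm10 (998856 bp). The nearer partner bin, chr5:126000005-126999957 (999953 bp), lists 0 genes in the table and is called the gene-poor partner here. The farther partner, chr5:126999954-128000006 (1000053 bp), lists 7 genes and is called the *Tmem132c* partner after the first of its protein-coding genes along the chromosome. The bins are bounded by recognition sites of MboI, the enzyme that cut the chromatin. The first and last 30 bases of each bin are shown because they fix where the contacts begin and end and show that both partner bins meet in 1 cut site. They are plus-strand bases of the RefSeq GRCm38.p6 sequence, with the MboI site GATC in capitals.
*Tbx3*/*Tbx5* bin, first bases at chr5:119000704-119000733: GATCattttatttatccattcttccttcaa
*Tbx3*/*Tbx5* bin, last bases at chr5:119999530-119999559: ggtaacccacacaggtctcagattcaGATC
Gene-poor partner, first bases at chr5:126000005-126000034: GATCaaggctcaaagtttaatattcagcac
Gene-poor partner, last bases at chr5:126999928-126999957: tcatgttcctacttgaaatgttgcagGATC
*Tmem132c* partner, first bases at chr5:126999954-126999983: GATCtgcctgtaggctgtacacatttttat
*Tmem132c* partner, last bases at chr5:127999977-128000006: aatatggaacagtttacaaacaaccaGATC

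The GATC that ends the gene-poor partner (position 126999954 to 126999957) is the one that begins the *Tmem132c* partner. The partners are thus direct neighbours, and both contacts share the *Tbx3*/*Tbx5* bin as the other end. They are not independent observations, but a pair of touching cells of 1 contact map.

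In MommeD43 NSCs the *Tbx3*/*Tbx5* bin had fewer contacts with both neighbouring partner bins than in WT NSCs. The contact with the *Tmem132c* partner, 8 bins (7.999 Mb) away from bin start to bin start, fell by 23.8%, and the contact with the gene-poor partner, 7 bins away, fell by 23.2%. Among all 138553 bin pairs tested, a number recovered from the deposited p-values and FDRs, 0.0440% were called at FDR < 0.1 in either direction, and 0.0101% were called as weakened, that is with fewer contacts in MommeD43. Since being called chose the members, nothing is read from their count against these shares.

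**Figure D1:**
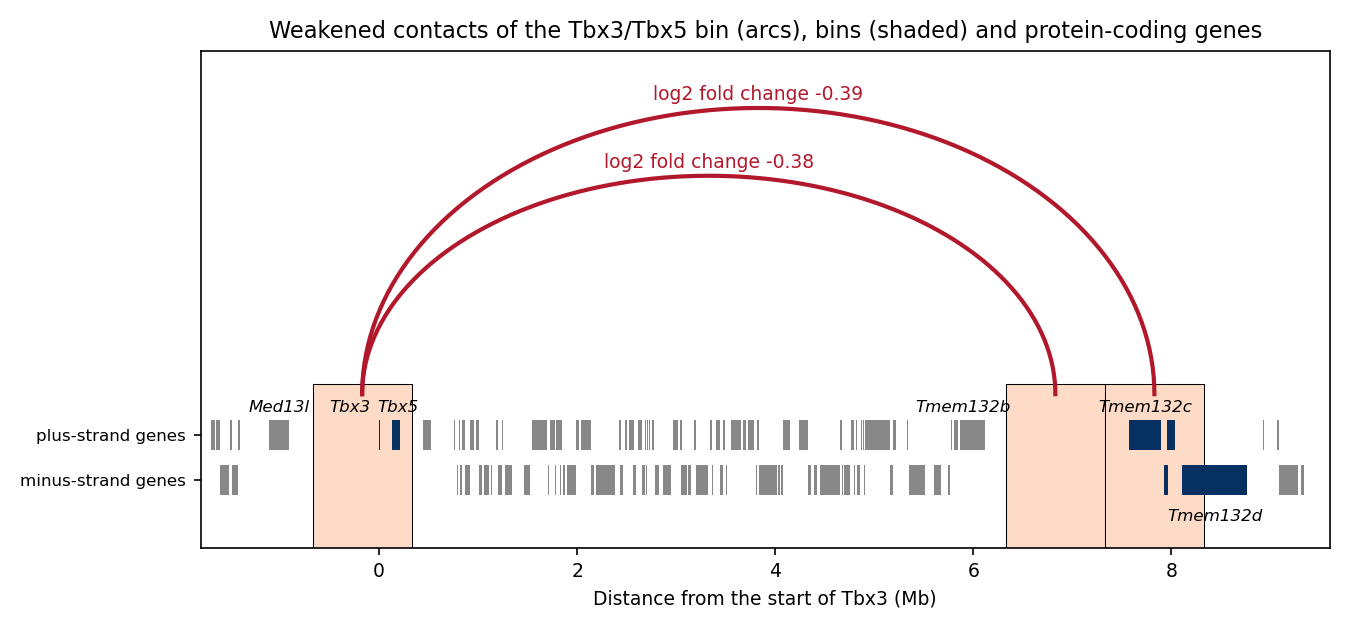
Both weakened contacts (red arcs, labelled with the log2 fold change of MommeD43 over WT) join the bin of *Tbx3* and *Tbx5* to 2 touching bins, shaded, along chromosome 5 (x axis: distance from the start of *Tbx3* in Mb). The bars below show protein-coding genes by strand, dark blue within the 3 bins and grey elsewhere: the first partner bin holds 0, while 117 lie between the *Tbx3*/*Tbx5* bin and the partners.

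The contact with the *Tmem132c* partner had a log2 fold change of -0.39 (MommeD43 over WT, approximate SE 0.0759). The approximate 95% interval ran from -0.54 to -0.24, or 15.3% to 31.4% fewer contacts. This interval rests on the same F by which the row was called, so it had to exclude 0. It is not corrected for that choice and may overstate the fall. The average abundance of the contact over all libraries was 2.78 log2 CPM, equal to 6.88 CPM (read pairs relative to the size of the library). The deposited F statistic was 26.7, with p = 4.76e-06 and FDR = 0.0482 by the authors' edgeR quasi-likelihood F test. This ranked the contact 13 of 61 by p-value, and it was the only member below an FDR of 0.05, at which 0.0101% of the bin pairs tested were called in either direction and 0.00361% as weakened.

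The contact with the gene-poor partner had a log2 fold change of -0.38 (approximate SE 0.0823). The approximate 95% interval, which has the same limit, ran from -0.55 to -0.21, or 13.8% to 31.5% fewer contacts. It was the more abundant of the pair, at 3.02 log2 CPM or 8.11 CPM, and its bins lie closer together. The F statistic was 21.3, with p = 3.10e-05 and FDR = 0.0925 by the authors' edgeR quasi-likelihood F test, which ranked it 46 of 61 by p-value and placed it close to the limit of 0.1 for entry into the table.

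The log2 fold changes of the members lay 0.012 apart, their abundances 0.24 log2 CPM and their F statistics 5.36. Both rows share a bin and passed the same FDR limit at a similar abundance, so nothing is read from how close their fold changes are. The more abundant member had the smaller F and hence the larger SE, which was computed from F and is not a separate observation. The table holds no values of single libraries, so it cannot be said whether all 3 MommeD43 lines lay below all 3 WT lines in either contact.

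Among the 61 rows, the members were common contacts with a modest change. They ranked 13 and 11 in abundance from the highest, and 47 and 49 in the size of the log2 fold change from the largest. The 10 rows more abundant than both members changed by 0.21 to 0.36 in size on the log2 scale, and the 48 rows less abundant than both changed by 0.37 to 1.00. All rows passed the same threshold, and a rarer contact needs a larger change to pass it, so size of change and abundance are not independent in this table. In the same range of abundance, 2 to 4 log2 CPM, 5 other rows were called, and their changes of 0.34 to 0.40 in size with SEs of 0.0721 to 0.0851 bracket those of the members in both respects. Of these 5 rows, the 3 on the X chromosome were all strengthened, and the 2 on autosomes were 1 weakened and 1 strengthened.

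**Figure D2:**
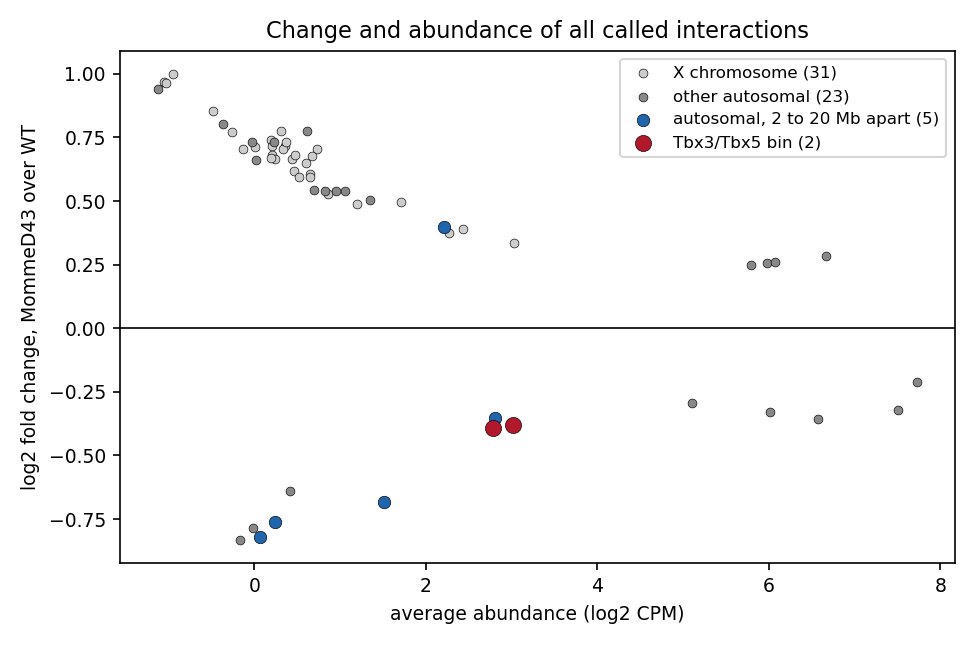
Each point is 1 of the 61 called interactions, with its average abundance in log2 CPM on the x axis and its log2 fold change of MommeD43 over WT on the y axis. The *Tbx3*/*Tbx5* rows (red, at 2.78 and 3.02 log2 CPM) lie below 0, beside a weakened row of chromosome 13 (blue, 2.81 log2 CPM) and on the same funnel of change against abundance as the other rows.

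The members were compared with the other autosomal rows whose bins lie 2 to 20 Mb apart. There were 5 of these, on chromosomes 11, 12 and 13, of which 4 were weakened and 1 was strengthened. Their log2 fold changes had a median size of 0.68 (range 0.35 to 0.82), and 4 of the 5 were larger than either member. Their abundances had a median of 1.51 log2 CPM (range 0.064 to 2.81), and the gene-poor contact was above all 5 and the *Tmem132c* contact above 4. The median F was 23.2 (range 21.1 to 26.2), below the F of the *Tmem132c* contact and above that of the gene-poor contact. None of the 5 rows had an FDR below 0.05 (lowest 0.0601). With 5 rows on 3 chromosomes these are positions in a short list, and no difference was tested.

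Among the weakened comparison rows, the nearest to the members in abundance and in size of change joined 2 bins of chromosome 13, 4 bins apart. These bins list *Map1b*, encoding a microtubule-associated protein of neurons, and *F2r*, encoding the thrombin receptor. The log2 fold change of this row was -0.35 (SE 0.0770) at 2.81 log2 CPM, with F = 21.1 and FDR = 0.0925. Its interval of -0.51 to -0.20 overlapped those of both members over most of their length. The row matched in distance to the gene-poor contact, at 7 bins, joined a cluster of zinc finger genes on chromosome 13, including *Zfp85*, to the bin of *Gas1* and *Dapk1*. It moved the other way, by 0.40 (SE 0.0834) at 2.21 log2 CPM, with F = 22.7. A change of this size at this distance was thus called in both directions.

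The remaining 3 rows were rarer contacts over longer distances, with larger log2 fold changes and larger errors. On chromosome 11, the bin of the *Hoxb* genes, which pattern the body axis, and a bin with *Ccl2* and other chemokine genes lay 14 bins apart and changed by -0.68 (SE 0.134) at 1.51 log2 CPM. On chromosome 12, a pair 13 bins apart with *Apob*, the main protein of low-density lipoprotein, in 1 bin changed by -0.82 (SE 0.167) at 0.064 log2 CPM. A second chromosome 12 pair, 15 bins apart with *Id2* and *Kidins220* in 1 bin and *Rdh14* in the other, changed by -0.76 (SE 0.158) at 0.25 log2 CPM. These rows had from 1.05 to 2.86 CPM, against 6.88 and 8.11 for the members, and SEs from 0.134 to 0.167 against 0.0759 and 0.0823.

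The rows just outside the distance window followed the same order, with the nearer pair more abundant and less changed than the farther one. A pair on chromosome 15, 1.99993 Mb apart, lists *Ctnnd2*, *Trio* and *Dnah5* and was weakened by a log2 fold change of -0.30 (SE 0.0599) at 5.10 log2 CPM. On chromosome 13, a pair 21.0 Mb apart changed by -0.83 (SE 0.167) at -0.17 log2 CPM. The sole other chromosome 5 row in the table lies within 1 bin, chr5:151000018-151834684 with *Rfc3* and *Stard13*, and changed by -0.36 (SE 0.0568) at 6.57 log2 CPM with FDR = 0.0138. All 3 chromosome 5 rows were therefore weakened, and they share no bin between the *Tbx3*/*Tbx5* contacts and the third. The members are touching cells of the contact map, however, and the third row is a same-bin pair, a kind that was normalized apart. Of the 28 autosomal rows other than the members, 12 were weakened and 16 strengthened, so no trend of chromosome 5 is read from this count.

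**Figure D3:**
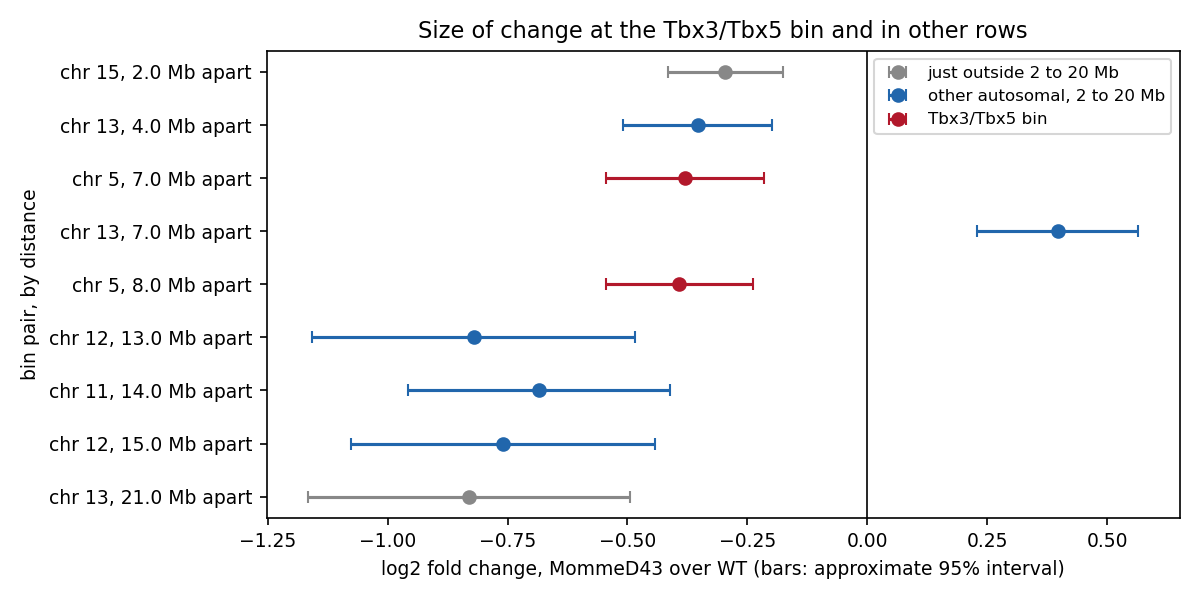
Log2 fold changes of MommeD43 over WT (x axis) for the 2 *Tbx3*/*Tbx5* contacts (red), the 5 other autosomal rows 2 to 20 Mb apart (blue) and the 2 rows just outside that window (grey), ordered by distance (y axis), with approximate 95% intervals as bars. Every row shown was called, so each interval excludes 0 by selection. The red intervals, -0.55 to -0.21 and -0.54 to -0.24, overlap those of all 4 weakened blue rows, of which the longer-range rows on chromosomes 11 and 12 have estimates further from 0 and wider bars.

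The *Tbx3*/*Tbx5* bin was found in 2 rows, each partner bin in 1. Of the 72 distinct bins in the table, 47 were in 1 row, 17 in 2 and 8 in 3 or more, with a maximum of 8 rows. Chromosome 5 has 152 bins at this size. For the other pairs that the *Tbx3*/*Tbx5* bin can form on its chromosome, the table does not say whether they were filtered out as too rare or tested and not called, and nothing can be said of their change.

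The genes of the bins differ in kind. The table lists 8 genes in the *Tbx3*/*Tbx5* bin, of which 2 are protein-coding, *Tbx3* and *Tbx5*, and 6 are long noncoding RNAs (lncRNAs), *Tbx3os2*, *AW549542*, *Gm16063*, *1700081H04Rik*, *Gm5563* and *Gm7538*. In RefSeq, *Tbx3* lies at chr5:119670534-119684724 and *Tbx5* at chr5:119796514-119885220, both on the plus strand, with 112 kb between them. *Tbx3os2* lies just past the 3' end of *Tbx3* on the other strand, and *Gm5563* lies within *Tbx5* on the opposite strand. RefSeq places 20 genes in the bin, 2 protein-coding and 18 lncRNA, and the 8 listed genes are all among them. Protein-coding genes cover 10.3% of the bin. The gap between *Med13l*, encoding a Mediator kinase module subunit, and *Tbx3* is 905 kb and the 17th longest of the 1137 gaps between protein-coding genes on chromosome 5, whose median is 15.9 kb.

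The gene-poor partner lies wholly within a still longer gap, of 1392 kb, between *Gm4868* and *Tmem132c* (chr5:125849962-127241825, the 12th longest). RefSeq places 0 protein-coding genes in this bin and 9 others, 6 lncRNAs and 3 small RNA genes or pseudogenes, the longest of which is the 117 kb lncRNA gene *Gm40331*. The GENCODE M21 annotation of the same assembly also has 0 protein-coding genes there, 2 in the *Tbx3*/*Tbx5* bin and 4 in the *Tmem132c* partner.

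The *Tmem132c* partner is built of few and long genes. Its 4 protein-coding genes are *Tmem132c* (324 kb, chr5:127241826-127565790) and *Tmem132d* (650 kb), single-pass membrane proteins of 1 family, *Slc15a4* (38.7 kb), a lysosomal histidine and peptide transporter, and *Glt1d1* (77.3 kb), a protein with a glycosyltransferase domain. *Tmem132d* runs past the end of the bin, to position 128433077. The other 3 listed genes, *Tmem132cos*, *4933438B17Rik* and *4930572K03Rik*, are lncRNAs. From the start of *Tbx3* to the start of *Tmem132c* is 7571 kb. The *Tmem132* family was looked at after these genes were seen. It has 5 members in RefSeq, and 3 are listed in the table: *Tmem132c* and *Tmem132d* here, and *Tmem132e* in the chemokine bin of the chromosome 11 row above. *Tmem132b*, at chr5:125532418-125792583, lies just before the gene-poor bin and is in 0 rows. The first pair are neighbours in 1 bin that the choice of *Tbx3* and *Tbx5* brought in, and 1.28% of autosomal protein-coding genes overlap a bin of the table, so the count is a description and nothing is read from it.

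Between the *Tbx3*/*Tbx5* bin and its partners lies a gene-dense segment. RefSeq places 117 protein-coding genes there, or 19.5 per Mb up to the gene-poor partner and 16.7 per Mb up to the *Tmem132c* partner. The same segments of the 5 comparison rows hold 4.42 to 11.9 per Mb. The 6 windows of 1 Mb between the bins hold 9 to 24 protein-coding genes each (median 22.5), against a median of 7 over chromosome 5. Heart genes of the segment include *Myl2*, encoding a myosin light chain of the ventricle, and *Atp2a2*, encoding the calcium pump of the sarcoplasmic reticulum, and brain genes include the homeobox genes *Lhx5* and *Cux2*. These are examples picked from the 117 genes after their positions were seen, with no fixed list or count, so nothing is read from them. None of the called contacts joins the *Tbx3*/*Tbx5* bin to a bin of this segment.

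The base composition of the bins was set against 149 windows of 1 Mb of chromosome 5 with at least 50% known bases, which include the windows that nearly coincide with the bins themselves. GC content was 47.4% in the *Tbx3*/*Tbx5* bin, above 83.2% of the windows, 45.4% in the *Tmem132c* partner, above 73.8%, and 42.8% in the gene-poor partner, above 51.7% (median of the windows 42.4%). The windows between the bins ranged from 46.7% to 50.5%. CpG dinucleotides were at 0.226 of the number expected from base composition in the *Tbx3*/*Tbx5* bin, 0.195 in the *Tmem132c* partner and 0.164 in the gene-poor partner (median 0.194). The 3 bins thus have the same order in GC content and in CpG ratio, with the *Tbx3*/*Tbx5* bin highest.

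MboI sites, which set how finely a bin can be cut in Hi-C, numbered 2432 in the *Tbx3*/*Tbx5* bin, 2471 in the gene-poor partner and 2571 in the *Tmem132c* partner. The median window had 2468, and 80% of windows lay between 2311.6 and 2598, so all 3 bins were within the usual range. Of the 149 windows, 111 have more protein-coding genes than the 2 of the *Tbx3*/*Tbx5* bin, and 90 have more than the 4 of the *Tmem132c* partner, 12 as many (its own window among them) and 47 fewer. Windows with 0, like the gene-poor partner, number 15, its own among them. By the share of bases within protein-coding genes the partners differed widely, with 0% in the gene-poor partner and 65.5% in the *Tmem132c* partner.

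**Figure D4:**
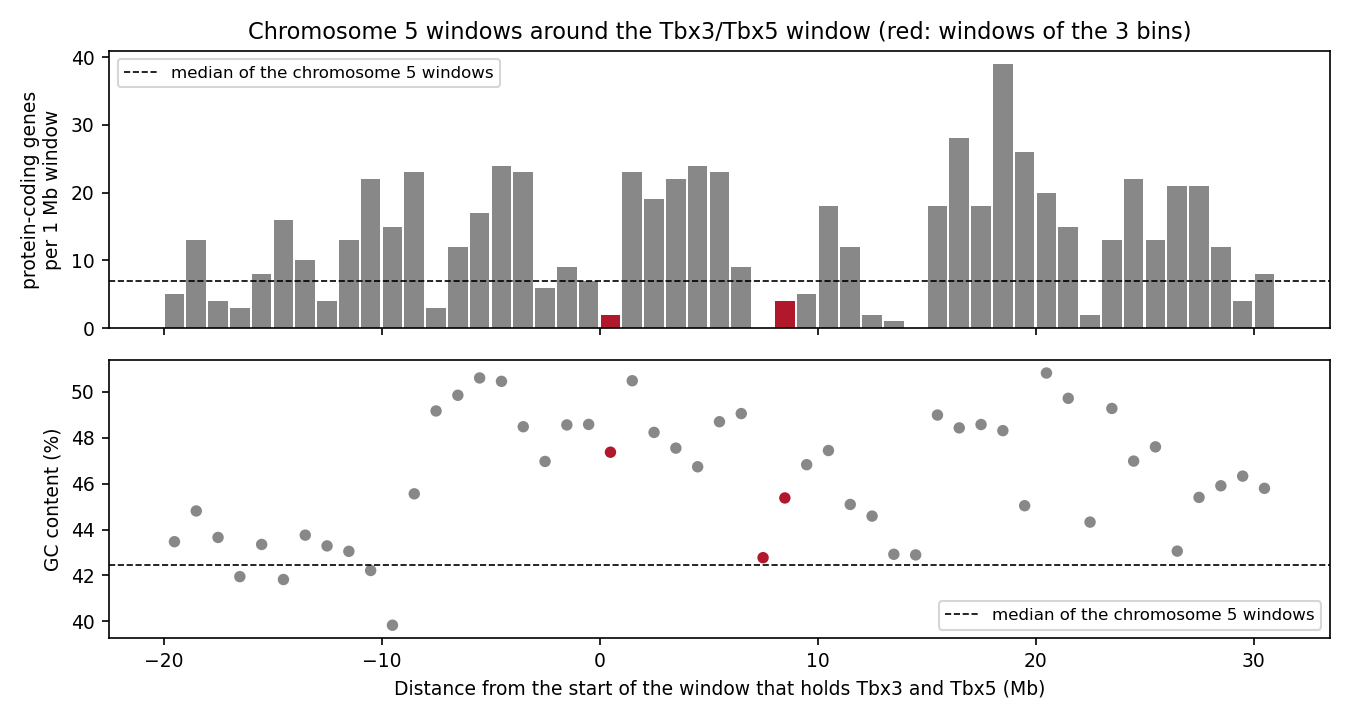
Protein-coding genes (upper panel, bars from 0) and GC content in percent (lower panel) in 1 Mb windows of chromosome 5, by distance in Mb from the start of the window that holds *Tbx3* and *Tbx5*. The windows of the 3 bins (red, with 2, 0 and 4 genes) flank 6 windows of 9 to 24 genes, and the dashed line is the median over the chromosome (7 genes, 42.4% GC).

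No T-box gene other than *Tbx3* and *Tbx5* was in a bin of the table. Of 18 names in a list of the T-box family, 17 were matched in RefSeq, since *T* and *Tbxt* name the same gene, and 2 were in the table. Those not in it include *Tbx2* and *Tbx4*, the neighbouring paralogs of *Tbx3* and *Tbx5* on another chromosome, *Tbr1* and *Eomes*, T-box genes of cortical neurons and their progenitors, and *Tbx1* and *Tbx20*, which act in heart development. In a second list of 21 genes that act with *Tbx3* and *Tbx5* in the heart and the limb, among them *Nkx2-5*, *Gata4*, *Hand2*, *Nppa*, *Fgf10* and *Sall4*, all 21 were matched and 0 were in a bin of the table. The bins of the table hold 1.28% of autosomal protein-coding genes (264 of 20665) and 2.43% of all (526 of 21631), and of the genes matched in both lists *Tbx22* alone is X-linked. Thus few or no genes of lists of this length would be in it at the overall share, and the counts say nothing particular about these genes. Absence from the table covers both tested contacts that did not pass FDR < 0.1 and contacts too rare to be tested.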

How the data were processed

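In situ Hi-C libraries of 3 WT and 3 MommeD43 female NSC lines were trimmed (Trim Galore 0.4.4, per the submitters' processing notes), mapped to mm10 with HiCUP and counted by the authors into 1 Mb bin pairs. The authors removed rare pairs against interchromosomal counts, applied LOESS normalization with same-bin pairs apart, and tested MommeD43 against WT with the edgeR quasi-likelihood F test through diffHic. Their deposited table of pairs at FDR < 0.1 gives log2 fold changes, log2 CPM abundances, F (a score of the deposited fit), and p-values raw and Benjamini-Hochberg adjusted. It has 0 columns of single libraries, so library depth is unknown and only the authors' fit is given.

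The approximate SE was the size of the log2 fold change divided by the square root of F, and the 95% interval used the t distribution with degrees of freedom recovered from F and p. The number of tests was recovered as the largest FDR times rank over p. Both recoveries were tested on simulated data, but the outcome is not given here, so no support is drawn from that check. Distance was taken between bin starts. Bin edges were read from GRCm38.p6, where 72 of 72 bins of the table begin with GATC, and genes were placed with the RefSeq table of that assembly. Every listed gene of the 3 bins was named, and other rows by up to 3 listed genes, with genes chosen later marked as such. The members and gene lists were chosen with earlier results of these data known. Alternatives were other thresholds, row sets, windows and intervals. Python 3.11.15, numpy 2.4.6, pandas 2.3.3, scipy 1.17.1 and matplotlib 3.10.9 were used.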

Additional observations from a re-analysis of the deposited data

How the results depend on the processing

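Of 53 alternative values, 39 stayed within the limits set for no change, 14 moved and 0 reversed. These limits were wide. Against comparison rows, a shift below the standard deviation of the 5 rows (0.21 for size, 1.20 log2 CPM for abundance) counted as no change. Only those values could be labelled reversed. Some values could not move, such as the percent of windows below the 0 coding genes of the gene-poor partner. The tally is therefore no measure of how robust the results are. The number of *Tbx3*/*Tbx5* contacts, 2 at FDR < 0.1, was 1 at FDR < 0.05, 0 at FDR < 0.01, 0 at a Bonferroni limit of 0.05 and 0 where the log2 fold change had to be 0.5 or more in size. With touching bin pairs merged it was 1. Against the single row 5 to 10 Mb apart, the size of the log2 fold change minus that of the row was -0.0055 for the *Tmem132c* contact and -0.017 for the gene-poor contact, in place of -0.29 and -0.30 against the 5 rows. Without chromosome 13, which leaves 3 rows, the abundance minus the median was 2.54 and 2.77 log2 CPM in place of 1.27 and 1.51. Against windows of all autosomes, the percent of windows with a lower value was 92.6 for the GC content and 82.3 for the CpG ratio of the *Tbx3*/*Tbx5* bin, 82.7 for the GC content and 80.7 for the coding cover of the *Tmem132c* partner, and 60.5 for the GC content of the gene-poor partner, in place of 83.2, 73.8, 73.8, 73.8 and 51.7. Counting distance in bins, an alternative chosen after seeing the data, adds the chromosome 15 row to make 6 and gave sizes of -0.15 and -0.16 relative to the median, in place of -0.29 and -0.30. No paired analysis was possible because the file holds no values of single libraries, and for the same reason DESeq2 and leaving out each replicate were not run. Read depth behind each contact is not known, and about 6.1 of the 61 rows may be false at the FDR used.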
